A study of Caenorhabditis elegans with 12 samples.

Results

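The anaphase-promoting complex and separase genes described here are 10 genes named in the deposited tables: mat-1, mat-2, mat-3, emb-27, emb-30, apc-11, fzr-1, fzy-1, ify-1 and sep-1. They were taken by a rule on gene name that uses no measured value, from 40961 gene names in all, and all 10 names were found. The libraries were made from gonads that had been cut out of adult Caenorhabditis elegans of the F3 generation with needles. In the exposed lines only the P0 ancestors met the chemical, for 48 h: 4 libraries descend from P0 worms kept with 100 µM bisphenol A (BPA), 4 from worms kept with 0.1% dimethyl sulfoxide (DMSO) and 4 from worms kept with water. All worms were grown at 20 °C on OP50 bacteria. The labels name no mutation or transgene, they do not say how many gonads went into a library, and they do not say whether the BPA medium also held DMSO. They number the samples of each exposure from 1 to 4 without saying what equal numbers share, or whether the samples of an exposure were cultured apart. The p-values therefore cover no more than sample-to-sample spread, part or all of which may be technical.

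The anaphase-promoting complex, or cyclosome (APC/C), is a large ubiquitin ligase that marks proteins for destruction when chromosomes separate. A coactivator, the Cdc20 type or the Cdh1 type, brings it its substrates, among them securin and the mitotic cyclins. Once securin is destroyed, the protease separase is free to cleave cohesin, which holds sister chromatids together. In the worm gonad, germ cells divide at the distal end and oocytes mature at the proximal end, and loss of most APC/C subunits arrests fertilised oocytes at metaphase of the first meiotic division. The names mat (metaphase to anaphase transition) and emb (embryonic lethal) come from such mutants.

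Levels are in RPKM, that is, reads per length of transcript and per size of library, summed over the transcript models that carry a gene's name. One gene can therefore be set against another per length. Library depth was estimated by taking the most frequent product of value and annotated length, among genes of 1 transcript, as 1 read. By that estimate it ran from 14.0 to 33.1 M reads. Only 30.5% to 34.8% of low values were whole within 0.1 read, so the estimate is rough. Markers of the germ line (5 genes) summed to 1427 RPKM in water 1 and to 2681 to 4432 RPKM in the other 11 libraries. Sperm markers (6 genes) summed to 103 RPKM in water 3 and to at most 13.6 RPKM in the other 11. Intestinal markers (5 genes) summed to 656 RPKM in DMSO 3, 192 RPKM in water 3 and at most 78.0 RPKM elsewhere. In bulk gonads, fewer cells of a type and less RNA per cell cannot be told apart.

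Among the members, 9 passed the filter on low values (1 RPKM or more in 4 or more libraries), as did 7570 genes in all. Over the 12 libraries, ify-1 stood highest, at 289 ± 31.5 RPKM (SD, n = 12), above 97.1% of the tested genes. Below it came mat-2 at 65.3 ± 13.1 RPKM, emb-27 at 61.6 ± 7.25 RPKM, sep-1 at 59.2 ± 14.1 RPKM and mat-3 at 53.2 ± 8.50 RPKM (SD, n = 12 each). Then followed fzr-1 at 36.7 ± 6.96 RPKM, emb-30 at 34.1 ± 5.61 RPKM and mat-1 at 22.02 ± 6.30 RPKM (SD, n = 12 each). The order was not equally firm throughout. ify-1 exceeded mat-2 in 12 of 12 libraries, mat-3 exceeded fzr-1 in 12 of 12 and emb-30 exceeded mat-1 in 12 of 12. By contrast, mat-2 exceeded emb-27 in 9 of 12 libraries, emb-27 exceeded sep-1 in 6 of 12, sep-1 exceeded mat-3 in 10 of 12 and fzr-1 exceeded emb-30 in 9 of 12, so the members of those pairs overlapped. mat-1 stood above apc-11 in 12 of 12 libraries. The names apc-11 and fzy-1 were listed at or near 0, as described with their loci below.

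**Figure D1:**
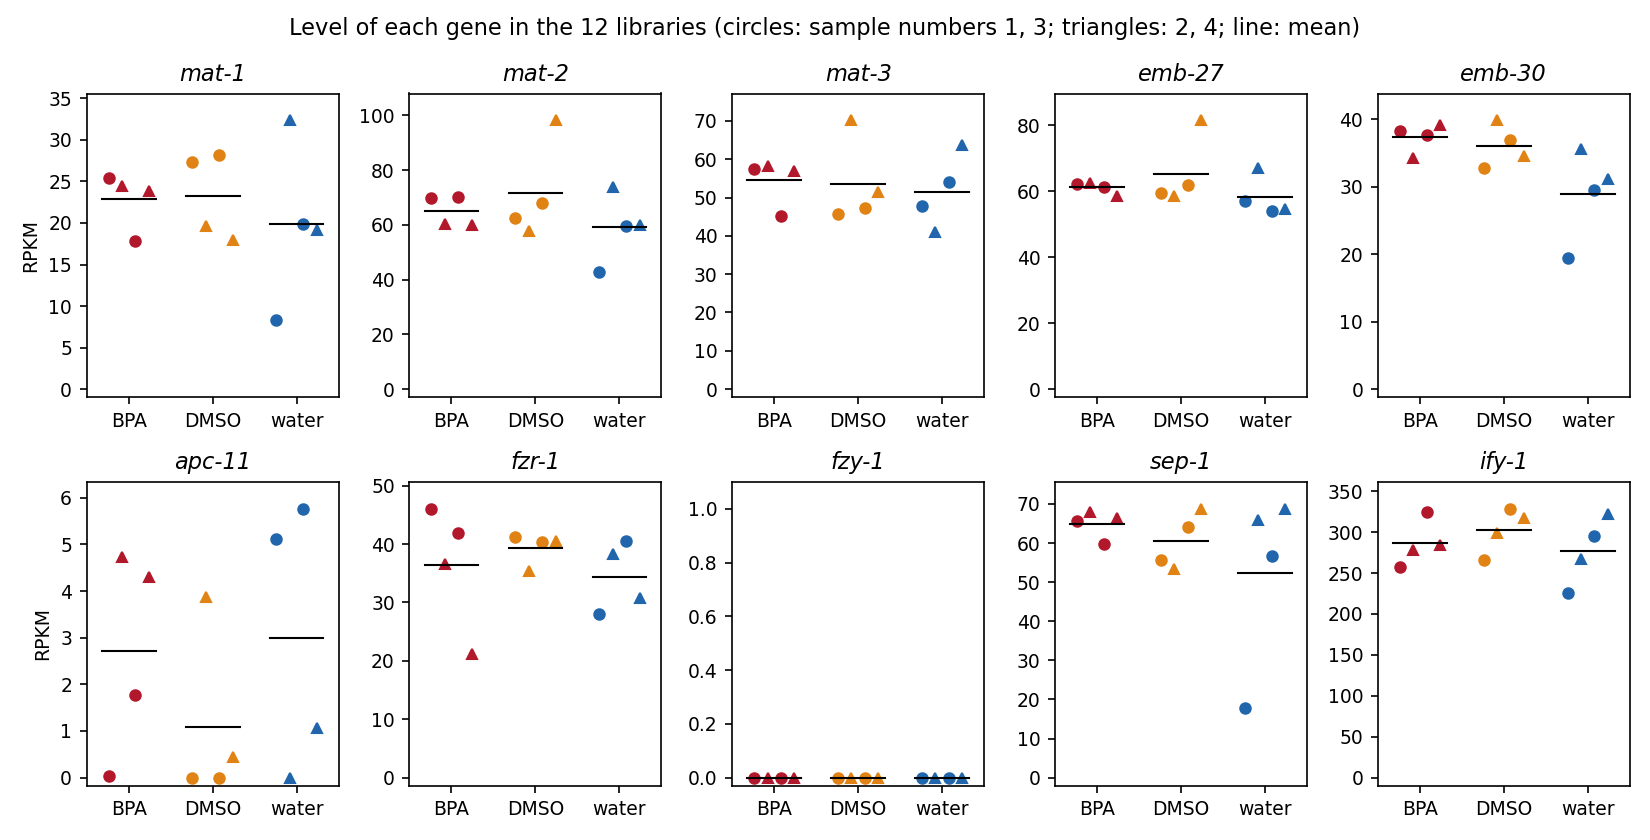
RPKM (linear axis from 0) of each of the 10 genes in every library, with BPA, DMSO and water from left to right; circles are sample numbers 1 and 3, triangles 2 and 4, and each line is a group mean. The groups overlap in every gene, water 1 is the lowest circle in sep-1 (17.9 RPKM) and mat-1 (8.27 RPKM), and fzy-1 is listed at 0 throughout.

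No member was called in any of the 3 exposure comparisons by limma at an adjusted p (Benjamini-Hochberg over all 7570 tested genes) under 0.05. With BPA against DMSO the count was 0 of 9 members, where 0.0264% of all tested genes (2 genes) were called. With BPA against water it was 0 of 9, where 0.0132% of all tested genes were called, and with DMSO against water 0 of 9, where the called share was also 0.0132%. At an unadjusted p under 0.05, 0 of 9 members passed with BPA against DMSO (0.872% of all tested genes), 1 of 9 with BPA against water (2.71%) and 0 of 9 with DMSO against water (1.7%). That 1 member was emb-30. In no member did the libraries of an exposure pair fail to overlap, against 1.08% of tested genes for BPA and DMSO, 2.02% for BPA and water and 0.885% for DMSO and water. The limma adjusted p of the 9 tested members was 1.00 in each case for BPA against DMSO, 0.987 to 0.999 for BPA against water and 0.999 for DMSO against water.

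The median log2 difference of the 9 tested members, on the log2(RPKM + 1) scale, was -0.0069 for BPA minus DMSO, 0.090 for BPA minus water and 0.20 for DMSO minus water. Over all tested genes the median was 0.019 for BPA minus DMSO, -0.012 for BPA minus water and -0.023 for DMSO minus water. The difference was above 0 in 4 of 9 members for BPA minus DMSO (55.5% of all tested genes), in 9 of 9 for BPA minus water (48.2%) and in 8 of 9 for DMSO minus water (46.2%). Of the 8 members that average 10 RPKM or more, 8 were above 0 in each comparison against water. Among all genes at that level, 57.6% were above 0 for BPA minus water (median 0.050) and 53.5% for DMSO minus water (median 0.022). The comparisons against water share the same 4 water libraries, and without water 1 the count above 0 was 6 of 9 in both, with medians of 0.029 for BPA minus water and 0.039 for DMSO minus water. Lists of genes that work with the members, described below, were counted with all libraries. For BPA minus water, 7 of 7 spindle checkpoint genes, 3 of 3 other APC/C subunits and 4 of 4 other ubiquitin ligases were above 0. So were 6 of 7 cohesin genes, 4 of 5 separase partners and 4 of 6 cyclin and cdk-1 genes. For DMSO minus water the counts were 7 of 7, 3 of 3, 3 of 4, 7 of 7, 2 of 5 and 4 of 6, in the same order.

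**Figure D2:**
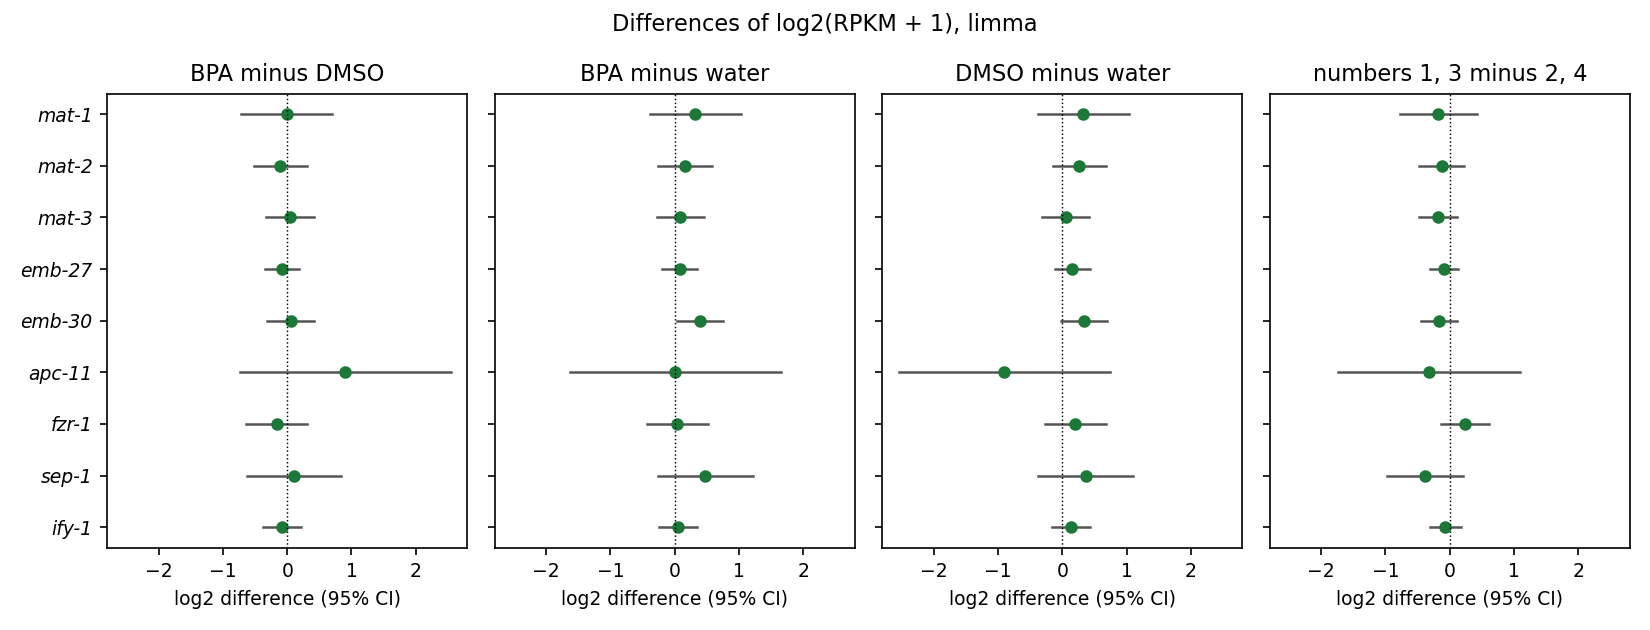
Log2 differences of the 9 tested genes (points) with 95% confidence intervals from limma (bars), 1 panel for each comparison, on the log2(RPKM + 1) scale. Every interval spans 0 except that of emb-30 for BPA minus water (0.03 to 0.75), and the interval of apc-11 is the widest.

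The scaffold of the APC/C is represented by mat-2, the worm homolog of APC1, and by emb-30, the homolog of APC4. emb-30 (chromosome III) stood at 38.3, 34.3, 37.6 and 39.2 RPKM in BPA 1 to 4 and at 32.8, 39.8, 36.9 and 34.5 RPKM in DMSO 1 to 4. In water 1 to 4 it stood at 19.4, 35.6, 29.4 and 31.1 RPKM. The 3 lowest of its 12 values were water libraries, while water 2 lay among the BPA and DMSO values. Its means were 37.3 ± 2.14 RPKM in BPA libraries, 36.02 ± 3.05 RPKM in DMSO libraries and 28.9 ± 6.82 RPKM in water libraries (SD, n = 4 each). By limma, BPA minus water was 0.39 log2 (SE 0.16, 95% interval 0.030 to 0.75), with an unadjusted p of 0.0363 and an adjusted p of 0.987, which does not pass. The difference between DMSO and water was 0.34 log2 (SE 0.16, interval -0.023 to 0.70, limma unadjusted p = 0.0639), and BPA minus DMSO was 0.052 (SE 0.16). Without water 1, the difference for BPA minus water was 0.22.

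mat-2 (chromosome II) had 69.8, 60.5, 70.3 and 60.02 RPKM in BPA 1 to 4 and 62.4, 57.6, 67.9 and 98.2 RPKM in DMSO 1 to 4. In water 1 to 4 it had 42.8, 74.0, 59.6 and 59.96 RPKM. DMSO 4 was the highest library and water 1 the lowest, and the other 10 lay between 57.6 and 74.0 RPKM. These are also the 2 libraries in which its transcript models were assigned differently. The first of its 2 models held 45.0 to 65.9 RPKM in the 10 other libraries but 1.98 RPKM in DMSO 4 and 0.593 RPKM in water 1, where the second held 96.2 and 42.2 RPKM, against 4.88 to 14.8 RPKM elsewhere. BPA minus DMSO was -0.11 log2 (SE 0.19), BPA minus water 0.16 (SE 0.19) and DMSO minus water 0.27 (SE 0.19). The locus of mat-2 also carries nasp-1, apc-17 and C09H10.20, and mat-2 took 13.6% of the locus sum in water 1 and 27.6% to 46.7% in the other 11 libraries. Summed over that locus, BPA minus water was -0.10 and DMSO minus water -0.056 log2, both below 0 where the gene's own differences were above it.

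Another 3 subunits, built of tetratricopeptide repeats, form the arm of the complex that receives the coactivator: mat-1 is the homolog of CDC27, mat-3 of CDC23 and emb-27 of CDC16. mat-1 (chromosome I) was listed at 25.4, 24.5, 17.8 and 23.9 RPKM in BPA 1 to 4 and at 27.3, 19.6, 28.2 and 17.9 RPKM in DMSO 1 to 4. In water 1 to 4 it was listed at 8.27, 32.4, 19.9 and 19.1 RPKM. The lowest and the highest of its 12 values, water 1 and water 2, both came from water libraries, and its coefficient of variation over the 12, 28.6%, was the largest of the 8 members above 10 RPKM. Its mean was 22.9 ± 3.46 RPKM in BPA libraries, 23.2 ± 5.27 RPKM in DMSO libraries and 19.9 ± 9.85 RPKM in water libraries (SD, n = 4 each). BPA minus DMSO was -0.0069 log2 (SE 0.32), an interval of -0.72 to 0.70. The 2 differences against water, 0.32 for BPA and 0.33 for DMSO (SE 0.32 each), were -0.025 and -0.018 without water 1.

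emb-27 (chromosome II) was the steadiest of the 3 across BPA libraries, at 62.3, 62.5, 61.3 and 58.6 RPKM in BPA 1 to 4. It stood at 59.5, 58.5, 61.8 and 81.5 RPKM in DMSO 1 to 4 and at 56.98, 67.1, 53.9 and 54.7 RPKM in water 1 to 4. Apart from DMSO 4, all its values lay between 53.9 and 67.1 RPKM. Its mean was 61.2 ± 1.81 RPKM in BPA libraries, 65.3 ± 10.9 RPKM in DMSO libraries and 58.2 ± 6.08 RPKM in water libraries (SD, n = 4 each), and BPA minus DMSO was -0.080 log2 (SE 0.12, interval -0.35 to 0.19). The annotation used by the authors gives emb-27 2 transcript models, and each library listed its whole value in 1 of them. The first model held all of it in DMSO 2 (58.5 RPKM), DMSO 4 (81.5 RPKM) and water 1 (57.0 RPKM), and the second in the other 9 libraries. Such an all-or-none assignment that changed between libraries was seen in 28 of 1137 tested genes with 2 transcript models and an average level of 10 RPKM or more (2.46%).

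mat-3 (chromosome III) had 57.6, 58.3, 45.3 and 56.98 RPKM in BPA 1 to 4 and 45.6, 70.2, 47.2 and 51.3 RPKM in DMSO 1 to 4. Water 1 to 4 had 47.7, 41.0, 53.95 and 63.6 RPKM. High and low values occurred in every exposure, and the groups overlapped. mat-3 shares its locus with F10C5.2, known as nemp-1, a gene of a nuclear envelope membrane protein. The locus sum ran from 79.9 to 99.6 RPKM with a coefficient of variation of 6.44% over 12 libraries, against 16.0% for mat-3 alone, and mat-3 took 50.1% to 75.0% of it. BPA minus DMSO was 0.038 log2 (SE 0.17), BPA minus water 0.090 (SE 0.17) and DMSO minus water 0.052 (SE 0.17).

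**Figure D3:**
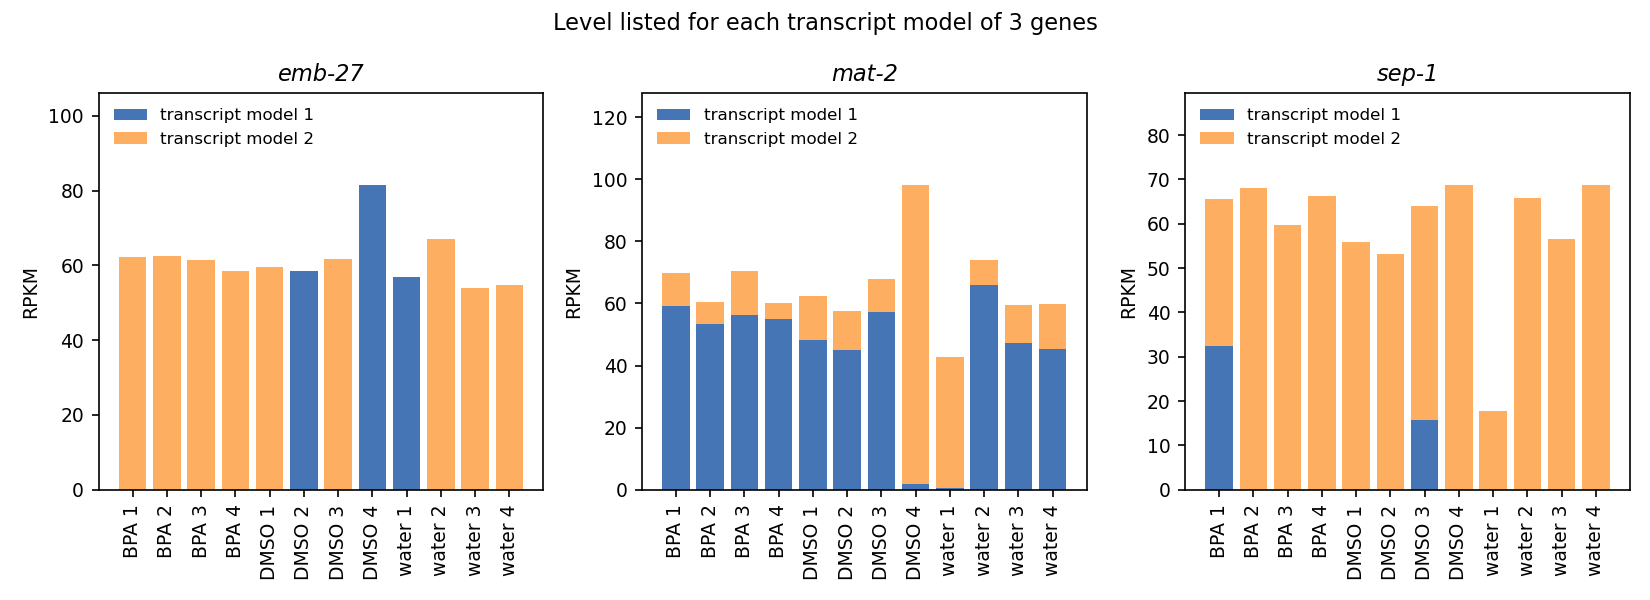
RPKM listed for each transcript model (stacked bars, linear axis from 0) of emb-27, mat-2 and sep-1 in the 12 libraries. In emb-27 the whole value sits in model 1 in DMSO 2, DMSO 4 and water 1 and in model 2 elsewhere; in mat-2 the smaller model becomes the larger one in DMSO 4 and water 1; in sep-1 model 1 is above 0 only in BPA 1 and DMSO 3.

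apc-11 encodes the RING subunit that binds the ubiquitin-conjugating enzyme, a catalytic part of the complex. It was listed at 0.0386, 4.73, 1.77 and 4.29 RPKM in BPA 1 to 4, at 0, 3.87, 0 and 0.451 RPKM in DMSO 1 to 4 and at 5.11, 0, 5.76 and 1.07 RPKM in water 1 to 4. Values of 0 occurred in DMSO 1, DMSO 3 and water 2, and the highest value was in water 3. Low and high values were found in each exposure. On chromosome III apc-11 lies next to asb-1, which encodes a mitochondrial ATP synthase subunit, on the same strand, and the transcript models join both at 1 locus. apc-11 took 0 to 4.56% of the locus sum, which ran from 112 to 175 RPKM. The limma differences were 0.91 log2 for BPA minus DMSO (SE 0.75, interval -0.73 to 2.55), 0.0074 for BPA minus water (SE 0.75) and -0.90 for DMSO minus water (SE 0.75). For the locus as a whole, BPA minus DMSO was -0.076 log2 (SE 0.15) and DMSO minus water 0.093 (SE 0.15), with the opposite signs. A low value of apc-11 cannot be told apart from reads given to asb-1.

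The 2 coactivators differed in what the tables hold. fzr-1 (chromosome II), the Cdh1-type coactivator, had 46.03, 36.6, 41.8 and 21.2 RPKM in BPA 1 to 4 and 41.2, 35.3, 40.4 and 40.6 RPKM in DMSO 1 to 4. Water 1 to 4 had 28.1, 38.4, 40.5 and 30.8 RPKM. BPA libraries held both the highest and the lowest value, BPA 1 and BPA 4, and the means were 36.4 ± 10.9 RPKM in BPA libraries, 39.4 ± 2.73 RPKM in DMSO libraries and 34.4 ± 5.94 RPKM in water libraries (SD, n = 4 each). BPA minus DMSO was -0.16 log2 (SE 0.22, interval -0.64 to 0.31) and BPA minus water 0.038 (SE 0.22). Of its 3 transcript models, the second held 17.2 to 40.4 RPKM and each of the others at most 5.05 RPKM.

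fzy-1 (chromosome II), the Cdc20-type coactivator, was listed at 0 in all 12 libraries and was not tested. Its 1 transcript model belongs to a locus with cyp-44A1 and with 3 models named ZK177.4, known as npp-24, a nucleoporin gene. In the current annotation fzy-1, cyp-44A1 and npp-24 follow each other on that chromosome, on the same strand. The locus sum was 126, 118, 138 and 137 RPKM in BPA 1 to 4, 117, 131, 128 and 137 RPKM in DMSO 1 to 4 and 179, 149, 126 and 76.7 RPKM in water 1 to 4. Both the highest and the lowest of these sums were in water libraries, water 1 and water 4. Per locus, BPA minus DMSO was 0.016 log2 (SE 0.21) and BPA minus water 0.033 (SE 0.21). The tables give no way to divide this sum among its genes, so a value of 0 for fzy-1 is a listing and not a measured absence of its RNA.

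**Figure D4:**
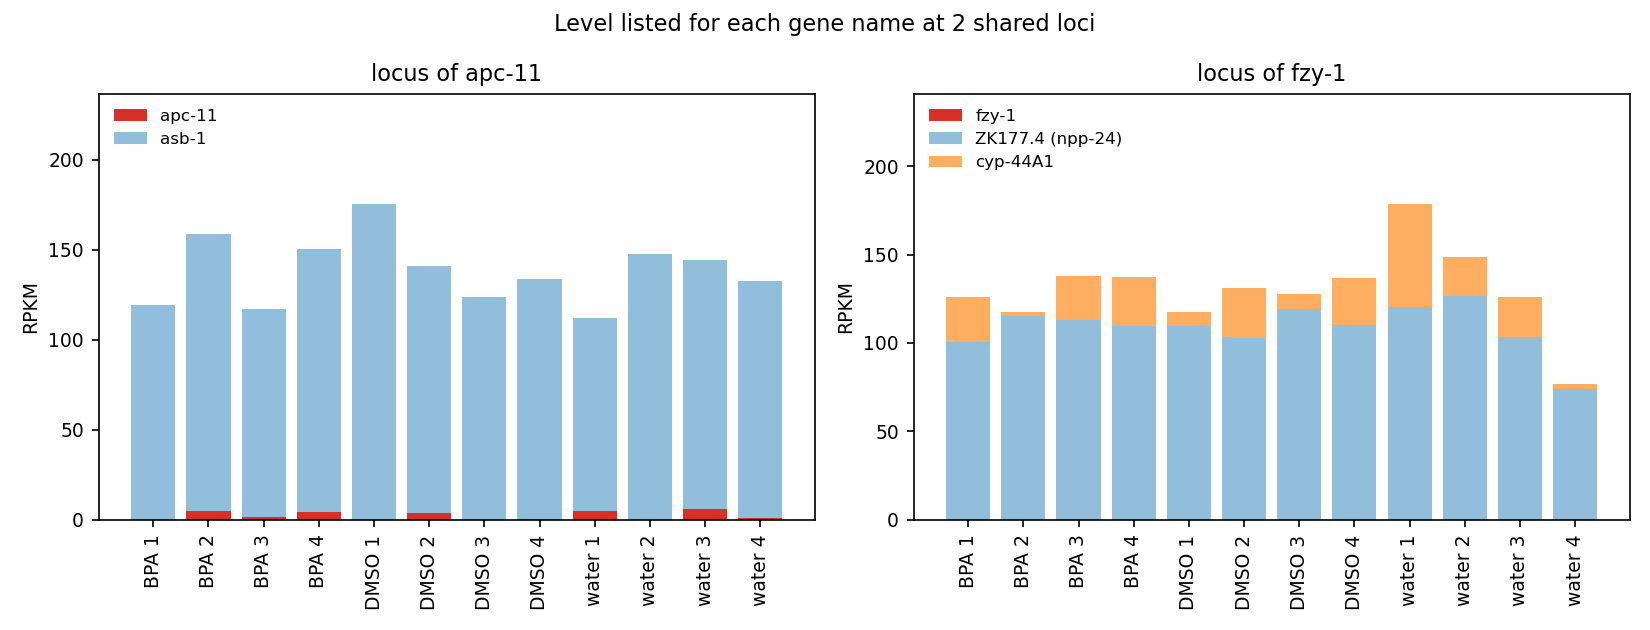
RPKM listed for each gene name (stacked bars, linear axis from 0) at the locus shared by fzy-1, cyp-44A1 and ZK177.4 (npp-24) and at the locus shared by apc-11 and asb-1, in the 12 libraries. fzy-1 is at 0 in every bar, and apc-11 is at most 5.76 RPKM in bars of 112 to 175 RPKM.

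The substrate and the protease at the end of the pathway each had a locus of their own, and both were listed above 0 in every library. Their spread differed: the SE of an exposure difference was 0.13 log2 for ify-1 and 0.34 log2 for sep-1. ify-1 (chromosome II), the worm securin, stood at 258, 278, 325 and 285 RPKM in BPA 1 to 4 and at 266, 299, 328 and 317 RPKM in DMSO 1 to 4. In water 1 to 4 it stood at 226, 268, 295 and 322 RPKM. It had the smallest coefficient of variation of the 9 tested members, 10.9%, with group means of 286 ± 28.2 RPKM in BPA libraries, 303 ± 27.2 RPKM in DMSO libraries and 278 ± 40.7 RPKM in water libraries (SD, n = 4 each). BPA minus DMSO was -0.081 log2 (SE 0.13, interval -0.38 to 0.21), BPA minus water 0.052 (SE 0.13) and DMSO minus water 0.13 (SE 0.13). These intervals are among the narrowest of the members, and they hold no difference larger than 0.43 log2 in either direction.

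sep-1 (chromosome I) encodes separase, which in worm oocytes also acts in cortical granule exocytosis. It was at 65.6, 67.96, 59.7 and 66.3 RPKM in BPA 1 to 4 and at 55.8, 53.2, 64.1 and 68.7 RPKM in DMSO 1 to 4. In water 1 to 4 it was at 17.9, 65.9, 56.7 and 68.6 RPKM. Water 1 stood apart below all others, and the remaining 11 values lay between 53.2 and 68.7 RPKM. The mean was 64.9 ± 3.61 RPKM in BPA libraries, 60.5 ± 7.20 RPKM in DMSO libraries and 52.3 ± 23.5 RPKM in water libraries (SD, n = 4 each), and 63.7 ± 6.26 RPKM in water without water 1 (SD, n = 3). BPA minus water was 0.47 log2 (SE 0.34, interval -0.26 to 1.21) with all libraries and 0.029 without water 1. For DMSO minus water it was 0.37 (SE 0.34) with all libraries and -0.077 without water 1, and BPA minus DMSO was 0.11 (SE 0.34, interval -0.63 to 0.84). The coefficient of variation over all libraries was 23.8%, and 8.91% without water 1. Reads were given to the second of 2 transcript models alone in 10 libraries, while BPA 1 listed 32.4 and 33.2 RPKM and DMSO 3 15.8 and 48.3 RPKM in the 2 models.

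Securin was listed above separase in every library. The ratio of ify-1 to sep-1 was 3.93, 4.09, 5.44 and 4.29 in BPA 1 to 4, 4.78, 5.62, 5.13 and 4.62 in DMSO 1 to 4, and 12.7, 4.06, 5.20 and 4.69 in water 1 to 4. Water 1 stood far above the rest, and the other 11 ratios overlapped between the 3 exposures. The ratio is of RNA levels per length and says nothing of the proteins. In genes averaging 10 RPKM or more, water 1 differed from the other libraries by transcript length. The median log2 difference was 0.65 for 500 to 1000 bases (ify-1 has 885) and -0.51 for 3000 to 4000 bases (sep-1 has 3941). From these medians, ify-1 lay at -1.03 log2 and sep-1 at -1.31 log2. The part of transcript length in the ratio of water 1 was not tested.

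Water 1 was the lowest of the 12 libraries in 5 of 9 tested members, sep-1, mat-1, emb-30, mat-2 and ify-1, and in 20.9% of all tested genes. Among genes averaging 10 RPKM or more, that share differed by transcript length. It was 6.91% for 500 to 1000 bases, 45.4% for 2000 to 3000, 61.3% for 3000 to 4000 and 54.9% above that. The level of water 1, as a ratio to the median of the other 11 libraries, was 0.272 for sep-1, 0.346 for mat-1, 0.546 for emb-30, 0.685 for mat-2, 0.695 for fzr-1 and 0.767 for ify-1. It was 0.884 for mat-3, 0.929 for emb-27 and 4.77 for apc-11. Among the 5 members lowest in water 1, the longest annotated transcript has 3941 bases in sep-1, 2664 in mat-1, 3243 in emb-30, 4609 in mat-2 but 885 in ify-1. The other 4 tested members have 2994 bases in fzr-1, 2118 in mat-3, 2033 in emb-27 and 469 in apc-11. Among all tested genes averaging 10 RPKM or more, the median log2 difference of water 1 from the other libraries was 0.84 for transcripts under 500 bases, 0.65 for 500 to 1000 and 0.15 for 1000 to 1500. It was -0.091 for 1500 to 2000 bases, -0.23 for 2000 to 3000, -0.51 for 3000 to 4000 and -0.44 above that. Of the 9 tested members, 6 lay below the median of their length class and 3 above it. The distance from that median was -1.31 log2 for sep-1, -1.20 for mat-1, -1.03 for ify-1, -0.33 for emb-30, -0.28 for fzr-1 and -0.097 for mat-2. It was 0.051 for mat-3, 0.12 for emb-27 and 0.72 for apc-11. apc-11, at a mean of 2.26 RPKM, lies outside the genes averaging 10 RPKM or more that gave the class medians. Water 1 also had the lowest germline marker sum, 1427 RPKM, which rests on 5 genes. Not every gene of cell division was low in water 1. Of the cyclin and cdk-1 genes listed below, cyb-1, cyb-2.1, cyb-2.2 and cdk-1 were highest there, cya-1 was lowest and cyb-3 lay between. cyb-2.1 (1268 bases) was at 107.2 RPKM in water 1, against at most 81.4 RPKM in the other 11 libraries. cya-1 (2083 bases) was at 13.3 RPKM in water 1, against at least 16.2 RPKM in the other 11. The part of length or of germline content in the members' low values was not tested.

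**Figure D5:**
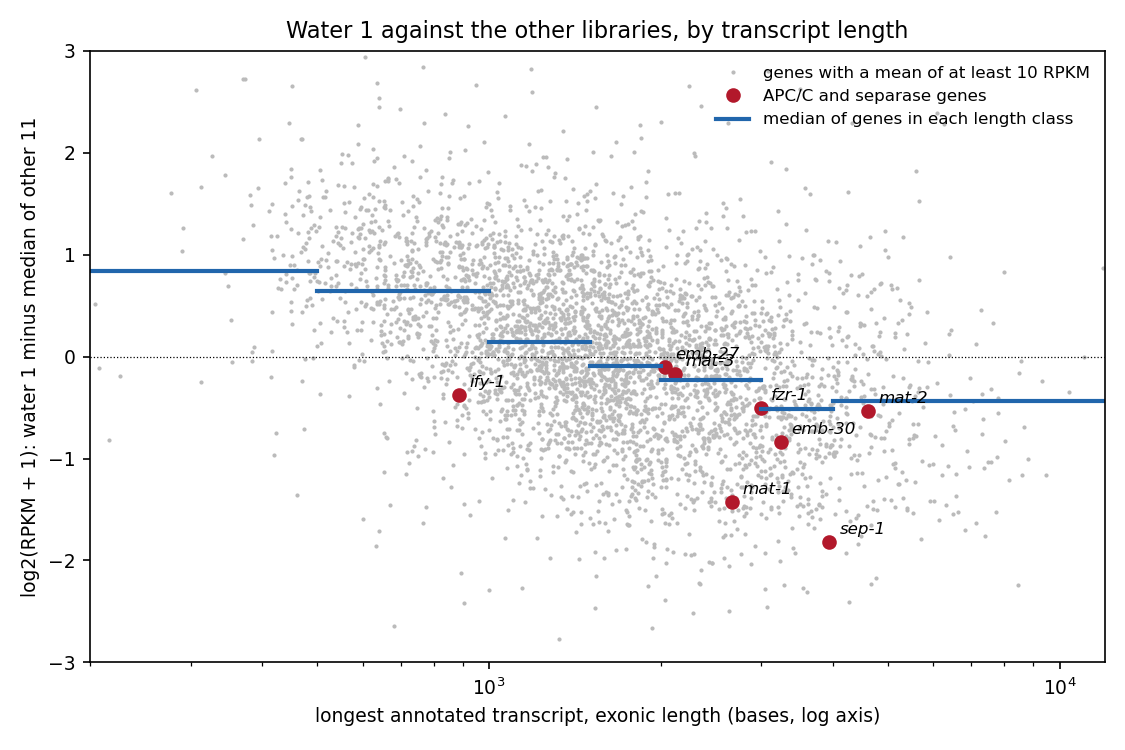
Difference of log2(RPKM + 1) between water 1 and the median of the other 11 libraries, against the longest annotated transcript (bases, log axis), for tested genes averaging 10 RPKM or more (grey), the 8 APC/C and separase genes at that level (red, labelled) and the median of each length class (blue line). apc-11, which averages less, is not drawn. The class medians run from 0.84 under 500 bases to -0.44 at 4000 bases and above, and sep-1 and mat-1 lie lowest of the members.

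The sample numbers in the labels were also set against each other, numbers 1 and 3 (6 libraries) against 2 and 4 (6 libraries) with exposure as a covariate, a split chosen because earlier results of these data had shown differences by number. By limma, 0 of 9 members were called, where 9.18% of all tested genes were, 674 of them higher in numbers 1 and 3 and 21 lower. At an unadjusted p under 0.05 the count was 0 of 9 members, where 21.2% of tested genes passed, and no member had number classes that failed to overlap, against 7.4% of tested genes. Among the 4270 genes that average 10 RPKM or more, as 8 of the 9 members do, 1.29% were called and 11.1% had an unadjusted p under 0.05. Muscle markers (4 genes) summed to 81.7 to 352 RPKM in numbers 1 and 3 and to 19.4 to 45.6 RPKM in numbers 2 and 4, without overlap, and their part in differences by number was not tested. The log2 difference of numbers 1 and 3 minus 2 and 4 was below 0 in 8 of 9 members (median -0.17), while 60.1% of all tested genes were above 0 (median 0.071). Among the genes averaging 10 RPKM or more, 47.8% were above 0 (median -0.011), as was 1 of the 8 members at that level. The single member above 0 was fzr-1, at 0.24 (SE 0.17). sep-1 had the lowest difference, -0.39 log2 (SE 0.26, interval -0.98 to 0.20), and -0.10 without water 1. Without water 1, 7 of 9 members were below 0, with a median of -0.057. With scaling by median ratios the median of all genes became -0.033, with 45.9% above 0, and that of the members -0.28, with 8 of 9 members still below 0.

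The differences between exposures were also compared between the number classes. apc-11 was higher in numbers 2 and 4 of BPA and of DMSO and higher in numbers 1 and 3 of water. The limma test of that change of difference gave -3.86 log2 for BPA against water (SE 0.90, adjusted p = 0.655) and -3.57 for DMSO against water (SE 0.90, adjusted p = 0.586). mat-1 had 1.44 for DMSO against water (limma adjusted p = 0.586). None of these passes after adjustment over all tested genes, and all apc-11 values rest on a locus it shares.

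Much of what the members shared across libraries rested on water 1. Over the 36 pairs of the 9 tested members, Pearson's r of log2(RPKM + 1) had a median of 0.27 over 12 libraries, with 11 pairs above 0.5. Without water 1 the median was 0.0047, with 2 pairs above 0.5. These were mat-2 with emb-27 (r = 0.82 with water 1 and 0.93 without it) and mat-3 with apc-11 (0.44 and 0.56). mat-2 and emb-27 were both highest in DMSO 4, at 98.2 and 81.5 RPKM. The libraries share exposure and sample number, so these values are a description. The gene most like sep-1 was klp-15, a kinesin of the meiotic spindle, with r = 0.98 over 12 libraries and 0.72 over the 11 without water 1. For mat-1 it was lig-1, a DNA ligase, with r = 0.96 and 0.90, and for emb-30 it was C29H12.2, with 0.95 and 0.85. ify-1 was most like Y37E3.1, known as ttc-5, with 0.94 and 0.90. mat-2 was most like Y79H2A.3 (0.91 and 0.83), and emb-27 was most like mdt-17 (0.90 and 0.90), a mediator subunit. mdt-17 averaged 33.9 RPKM, with a highest value of 265 RPKM. fzr-1 was most like swd-2.2 (0.87 and 0.85), mat-3 most like tac-1 (0.85 and 0.85), a centrosome protein, and apc-11 most like fib-1 (0.86 and 0.85), fibrillarin. Each was picked as the highest of up to 4254 genes searched.

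Genes that work with the members were counted from lists of 37 names, of which 35 were found and 32 tested. With BPA against DMSO, BPA against water and DMSO against water, limma called 0 of these 32, where 0.0132% to 0.0264% of all tested genes were called. At an unadjusted p under 0.05, 1 of 32 passed with BPA against water, cya-1, and 0 with BPA against DMSO or DMSO against water, where 2.71% of all tested genes passed with BPA against water, 0.872% with BPA against DMSO and 1.7% with DMSO against water. Of the other APC/C subunits, 4 names were found and 3 were tested. apc-2, the cullin-like catalytic subunit, had 164 ± 31.8 RPKM and such-1, a homolog of APC5, 61.2 ± 7.94 RPKM (SD, n = 12 each). emb-1, a small subunit, was listed at 0 to 2.02 RPKM and was not tested. gfi-3, also a homolog of APC5, lies on the X chromosome and was the only APC/C gene called in any comparison: numbers 1 and 3 had 7.27 ± 0.975 RPKM and numbers 2 and 4 4.01 ± 0.697 RPKM (SD, n = 6 each), 0.73 log2 higher in 1 and 3 (SE 0.14, limma adjusted p = 0.0123), without overlap. In that comparison 9.18% of all tested genes were called, 674 of 695 in the same direction, and 7.4% did not overlap. None of the APC/C genes was called for exposure, and gfi-3 itself was at 5.88 ± 2.23 RPKM in BPA libraries, 5.65 ± 2.42 RPKM in DMSO libraries and 5.39 ± 1.42 RPKM in water libraries (SD, n = 4 each).

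The spindle checkpoint holds the APC/C inactive until chromosomes are attached. All 7 of its listed genes were tested, and 0 were called in any of the 4 comparisons. Of all tested genes, 0.0132% to 0.0264% were called for exposure and 9.18% by number. At an unadjusted p under 0.05 the count was also 0, against 0.872% to 2.71% of all tested genes for exposure and 21.2% by number. bub-3 stood at 137 ± 10.5 RPKM and mdf-2, the worm Mad2, at 112 ± 17.2 RPKM (SD, n = 12 each). The median difference of the 7 checkpoint genes was -0.035 log2 for BPA minus DMSO and 0.10 for BPA minus water. Water 1 was the lowest library for rod-1 (24.9 RPKM, against 61.3 to 87.2) and bub-1 (35.9 RPKM, against 75.6 to 91.9). It was also lowest for mdf-1, mdf-2, bub-3 and czw-1, but not for san-1. Mitotic cyclins are substrates of the APC/C, and cdk-1 is their kinase. Of the 6 genes, all tested, cyb-3 had 382 ± 39.1 RPKM and cdk-1 157 ± 9.39 RPKM (SD, n = 12 each), and 0 were called in any of the 4 comparisons. By number, the difference of 1 and 3 minus 2 and 4 was above 0 in 5 of 6, and 2 of 6 had an unadjusted p under 0.05 (21.2% of all tested genes). These were cyb-3, at 0.24 log2 (SE 0.082, limma adjusted p = 0.111), and cyb-1, at 0.30 (SE 0.12, limma adjusted p = 0.193). cyb-1, named after its values were seen, did not overlap between the numbers, as was so for 7.4% of all tested genes. With array weights the limma adjusted p of cyb-3 was 0.0189, and with median-ratio scaling its difference was 0.12 log2 with an adjusted p of 0.491. Without water 1 the difference of cyb-1 was 0.18 log2. cya-1, a cyclin A gene named here after its values were seen, was at 25.7, 20.5, 25.9 and 21.03 RPKM in BPA 1 to 4 and at 13.3, 18.9, 16.2 and 17.2 RPKM in water 1 to 4, without overlap (2.02% of tested genes), a difference of 0.48 log2 (SE 0.15) with a limma adjusted p of 0.987, which does not pass.

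Cohesin is what separase cuts. Of 10 listed cohesin names 9 were found, 7 were tested and 0 were called in any of the 4 comparisons. The remaining name, smc-1, was not found as such and may be the gene listed as him-1. Of all tested genes, 0.0132% to 0.0264% were called in the 3 exposure comparisons and 9.18% by number, for this list and those that follow. wapl-1, a release factor, stood at 425 ± 118 RPKM and smc-3 at 81.6 ± 13.1 RPKM (SD, n = 12 each). rec-8, the meiotic kleisin that separase cleaves, was listed at 0 in all 12 libraries, and him-1, an SMC subunit, at 0 to 1.06 RPKM. Both are known to be needed for meiosis, so these listings, like that of fzy-1, are not read as absence. Of the partners of separase and of the inner centromere, 5 of 5 were tested and 0 called, with icp-1, the worm INCENP, at 101 ± 22.6 RPKM and air-2, the Aurora B kinase, at 68.9 ± 14.7 RPKM (SD, n = 12 each). Ubiquitin ligases of the cullin type act beside the APC/C at the end of meiosis. Of their 4 genes, 1 was called by number, zyg-11, where 9.18% of all tested genes were called. For zyg-11, numbers 1 and 3 had 128 ± 12.1 RPKM and numbers 2 and 4 94.6 ± 9.58 RPKM (SD, n = 6 each), 0.44 log2 higher in 1 and 3 (SE 0.10, limma adjusted p = 0.023). That call was lost with median-ratio scaling, at 0.32 log2 and a limma adjusted p of 0.1. With no filter and with a mean of at least 10 RPKM the difference stayed at 0.44 log2, and the limma adjusted p was 0.0722 and 0.0797. It was also lost in 8 of the 12 fits that left out 1 library, at 0.39 to 0.45 log2 (adjusted p over all alternatives 0.00252 to 0.1). mel-26 had 73.2 ± 6.97 RPKM (SD, n = 12).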

How the data were processed

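RNA of needle-dissected gonads was amplified with a SMART-Seq kit, made into Nextera XT libraries and sequenced as single-end 50 bp reads, per the labels' protocols. The authors deposited 1 table of 49201 transcripts for each of 12 libraries, in RPKM per the file headers (FPKM in BPA 1, which for single-end reads is equivalent). HISAT, StringTie and ce10 are named in the submitters' processing notes, with versions and annotation not given in the sources used here. No strand-specific step is named, so overlapping and antisense genes are uncertain.

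Values were summed per gene name; 0.879% to 2.67% of a library's sum had no name. The tables hold no counts: 30.5% to 34.8% of low values were whole within 0.1 read, too few to recover reads. limma 3.58.1 (R 4.3.3) with a mean trend was fitted to log2(RPKM + 1) of the 7570 genes that reached 1 RPKM in 4 or more libraries, on all 12 libraries, with Benjamini-Hochberg adjustment over all of them and a call at an adjusted p under 0.05. The code was tested on simulated data. Groups came from the sample titles. Alternatives varied the pseudocount, filter, scaling, weights, block, libraries, locus sums and length correction.

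Members, lists and tests were chosen with earlier results of these data known. Named were all members, the 2 highest genes of each list with any called one, and the gene most correlated with each member. Chromosomes and lengths came by name from Ensembl release 115, another build, so no coordinates are given.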

Additional observations from a re-analysis of the deposited data

Results flagged for a closer look

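In groups of 4 libraries, 4 of 27 groups examined held a library that stood far from the other 3 by the gap between neighbours. For independent, normally spread values this rule marks about 1 in 20. Its rate over all tested genes was not computed, and the 27 groups come from the same 12 libraries, so no excess is read from the count. emb-27 was at 81.5 RPKM in DMSO 4, set against 58.5 to 61.8 RPKM in the other DMSO libraries. DMSO 4 is also 1 of the 3 libraries in which its value was listed in the first transcript model. mat-3 was at 45.3 RPKM in BPA 3, set against 57.0 to 58.3 RPKM in the other BPA libraries, while its locus sum in BPA 3 was 90.3 RPKM, within the range of all libraries. fzr-1 was at 35.3 RPKM in DMSO 2, set against 40.4 to 41.2 RPKM in the other DMSO libraries. apc-11 was at 3.87 RPKM in DMSO 2, set against 0 to 0.451 RPKM in the other DMSO libraries. No cause of these values was tested.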

How the results depend on the processing

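Members called stayed at 0 in each of the 4 comparisons under every alternative that was run. Over the 36 member differences, 863 alternative values gave a lowest limma adjusted p of 0.113, and 63 of them changed sign, 35 in alternatives that kept all libraries of a comparison or split them by number and 28 in fits that left out 1 library. With sample numbers 2 and 4 alone, BPA minus DMSO was 0.35 for mat-1, -0.058 for mat-3 and -0.016 for emb-30. BPA minus water was -0.039 for mat-1, -0.14 for mat-2, -0.0011 for emb-27, -0.29 for fzr-1, -0.0020 for sep-1 and -0.061 for ify-1. DMSO minus water was -0.39 for mat-1, -0.15 for sep-1 and 0.89 for apc-11. With sample numbers 1 and 3 alone, BPA minus DMSO was 0.10 for mat-2, 0.027 for emb-27 and 0.10 for fzr-1. BPA minus water was -1.92 for apc-11. DMSO minus water was -0.12 for mat-3. Summed per locus, BPA minus DMSO was -0.076 for apc-11. BPA minus water was -0.10 for mat-2. DMSO minus water was -0.056 for mat-2, -0.013 for mat-3 and 0.093 for apc-11. Numbers 1 and 3 minus 2 and 4 was 0.052 for mat-2. With a correction for transcript length, chosen after seeing the data, BPA minus water was -0.035 for mat-2, -0.022 for mat-3, -0.028 for emb-27 and -0.12 for fzr-1. DMSO minus water was -0.024 for mat-3. With array weights, BPA minus water was -0.0069 for fzr-1 and -0.078 for ify-1. DMSO minus water was -0.080 for mat-3 and -0.016 for sep-1. Numbers 1 and 3 minus 2 and 4 was 0.096 for mat-1 and 0.0067 for mat-2. With a pseudocount of 5, BPA minus water was -0.024 for apc-11. For BPA against DMSO, the number of called genes, 2, became 1 with a pseudocount of 0.1, 1 with a mean of at least 10 RPKM required, 1 with a replicate block, 1 with the compared groups fitted alone, 4 with sample numbers 1 and 3 alone and 12 with sample numbers 2 and 4 alone. For BPA against water, the number of called genes, 1, became 2 with array weights, 0 with a replicate block, 3 with the compared groups fitted alone, 4 with sample numbers 1 and 3 alone and 16 with sample numbers 2 and 4 alone. For DMSO against water, the number of called genes, 1, became 0 with a mean of at least 10 RPKM required, 3 with the compared groups fitted alone, 5 with sample numbers 1 and 3 alone and 7 with sample numbers 2 and 4 alone. For sample numbers 1 and 3 against 2 and 4, the number of called genes, 695, became 390 with no filter on low values, 55 with a mean of at least 10 RPKM required and 1292 with array weights. Over the fits that left out 1 library each, the ranges of the results that changed were as follows. For BPA minus DMSO, log2 differences ran as mat-1 from -0.12 to 0.10, mat-2 from -0.20 to 0.055, mat-3 from -0.030 to 0.17, emb-27 from -0.13 to 0.029 and fzr-1 from -0.29 to 0.069. For BPA minus water, the count of all genes called ran from 1 to 2. Log2 differences ran as mat-1 from -0.025 to 0.59, mat-3 from -0.012 to 0.20, fzr-1 from -0.090 to 0.27, ify-1 from -0.042 to 0.13 and apc-11 from -0.53 to 0.53. For DMSO minus water, the count of all genes called ran from 1 to 2. Log2 differences ran as mat-1 from -0.018 to 0.60, mat-3 from -0.083 to 0.16 and sep-1 from -0.077 to 0.55. For numbers 1 and 3 minus 2 and 4, the count of all genes called ran from 395 to 988. Log2 differences ran as mat-1 from -0.28 to 0.061 and apc-11 from -0.76 to 0.038. The cause of these changes was not tested, except that the fits on part of the numbers and on the compared groups hold fewer libraries.

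Samples with the same number did not deviate together in every pair: the correlations of their deviations from the group means ran from -0.13 to 0.35, and 6 of 12 libraries correlated best with a library of their own number. The main fits used no block because the labels name none, although 9.18% of all tested genes were called between the number classes. With the replicate block, the called genes numbered 1 for BPA against DMSO, 0 for BPA against water and 1 for DMSO against water, and called members 0 in each. Depth limits apc-11, whose values of at most 5.76 RPKM on a short transcript rest on few reads, while shared loci limit mat-2, mat-3, apc-11 and fzy-1.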

Other observations

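The genes that share loci with the members were listed at these levels. nasp-1, a homolog of a histone chaperone, at the locus of mat-2, had 118.9, 118, 139 and 130.3 RPKM in BPA 1 to 4, 118.6, 125, 114 and 155 RPKM in DMSO 1 to 4 and 271, 84.4, 105 and 157 RPKM in water 1 to 4. Water 1 was its highest library and the lowest of mat-2. npp-24, at the locus of fzy-1, had 101, 115, 113 and 109.8 RPKM in BPA 1 to 4, 109.8, 103, 119.4 and 110.2 RPKM in DMSO 1 to 4 and 120.2, 126, 103 and 74.02 RPKM in water 1 to 4. Its last listed transcript model was at 0 in water 4 and at 59.9 to 87.7 RPKM in the other 11 libraries. cyp-44A1, a cytochrome P450 gene between them, ran from 2.61 to 58.3 RPKM, with water 1 highest. asb-1, next to apc-11, was listed wholly in 1 of its 2 models in BPA 1 (119.3 RPKM), a model that held at most 39.2 RPKM in the other 11 libraries. nemp-1, at the locus of mat-3, ran from 23.4 RPKM in DMSO 2, where mat-3 was highest at 70.2 RPKM, to 45.1 RPKM.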
